A study of Mus musculus with 2 samples.

Results

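Chromatin loops around Sox9 were taken as all called loops on chromosome 11 with at least 1 anchor inside 111000000 to 113500000 (mm10), a window that holds Sox9 and the gene-poor stretches on both of its sides. In each library 34 loops met this rule, out of 26240 loops in diestrus and 24131 in estrus. They were chosen by position and by having been called, that is on their observed and expected contacts and q-values. The loops came from Hi-C, which ligates neighbouring stretches of chromatin and reads the joined ends as pairs (contacts). The tissue was the uterus of intact and untreated mice of the outbred CD-1 stock, at 2 months of age. Diestrus, when progesterone acts on the uterus, and estrus, after the estrogen peak, each gave a single library (n = 1), and the number of animals behind each is not stated by the labels. Differences between the stages are therefore without replicates and were not tested. The labels name the uterus and no cell type, so loops of epithelium, stroma and muscle cannot be told apart, and the lists hold no expression values against which markers could be checked. The window was proposed with results of these lists in view, so the values describe it and test nothing.

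Sox9 encodes a transcription factor of the SOX family. In the uterus it is known from the glandular epithelium, where it marks cells at the base of the glands, and it also acts in the testis, cartilage and intestine. The gene stands almost alone between broad gene deserts that hold many of its distant enhancers, and in humans rearrangements and deletions in these deserts are a known cause of skeletal and gonadal disorders. A chromatin loop is a pair of segments that touch more often than their surroundings, often the end points of a domain held by cohesin and CTCF, or a promoter and a distal element.

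Sox9 (gene ID 20682) lies at 112782210 to 112787757 on chromosome 11. The nearest protein-coding gene at lower coordinates, predicted gene Gm11677 aside, is the potassium channel gene Kcnj2, which ends 1705 kb from Sox9. At higher coordinates the zinc transporter gene Slc39a11 begins 457 kb away. Of the 24 annotated genes that overlap the window, 5 are protein-coding (Kcnj16, Kcnj2, Gm11677, Sox9 and Slc39a11), 18 are long non-coding RNAs and 1 is a pseudogene. The median window of the same size, 2.5 Mb, held 15 protein-coding genes over 1039 windows of the genome. The Sox9 window was thus poor in genes but not in loops: the median window held 30 loops in diestrus and 28 in estrus, with an interquartile range of 18 to 40 and 16 to 37.

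Anchors are bins 10 kb wide and are named here by their lower edge in Mb. The anchor at 112.78 Mb (112780001 to 112790000) holds the whole of Sox9. At the lower edge of the window the outermost anchor inside was at 111.04 Mb in both libraries, and its strongest loop had 303 contacts in diestrus and 296 in estrus. The nearest anchor of loops outside the rule was at 110.49 Mb, with a strongest loop of 317 and 377 contacts. At the upper edge the outermost anchor inside was at 113.49 Mb, with 42 contacts in diestrus and 83 in estrus, and the nearest outside was at 113.50 Mb, with 119 and 142.

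**Figure D1:**
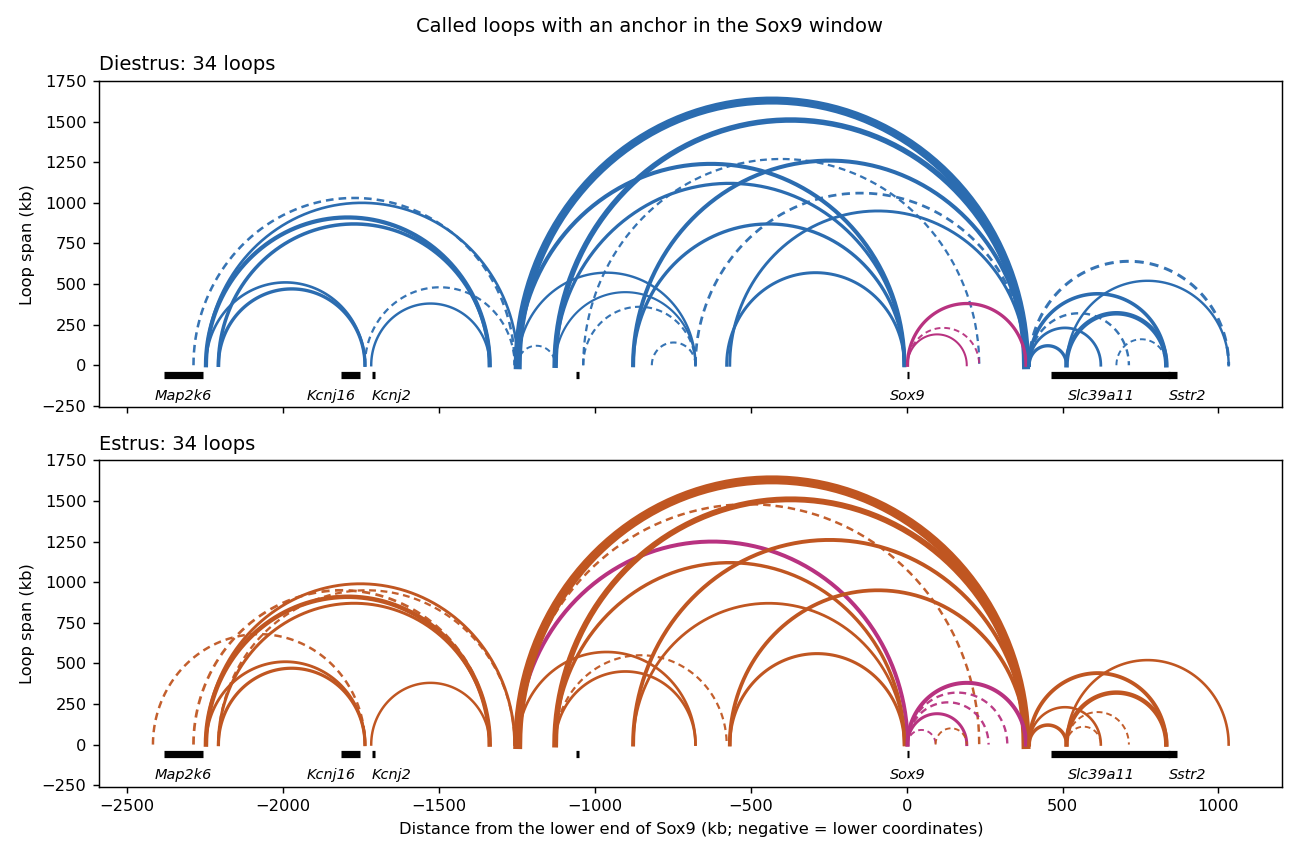
Arcs join the anchors of the 34 loops of each library, with distance from the lower end of Sox9 in kb on the x axis and loop span in kb on the y axis. Line width grows with observed over expected contacts, dashed arcs were not found in the other library, and magenta arcs have an end of Sox9 in an anchor. Black bars are selected protein-coding genes (the unlabelled bar is Gm11677), and Sdk2 is not drawn. In both libraries the arcs fall into 3 groups that meet at 111.53 Mb and at 113.16 to 113.17 Mb.

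The loops fell into 3 separate groups along the chromosome in both libraries. No loop with an anchor in the window passed over the bin at 111.53 Mb (111530001 to 111540000), and none passed over the pair of bins from 113160001 to 113180000. Between these positions, up to 11 loops in diestrus and 10 in estrus passed over a single bin. The lowest group, around Map2k6, Kcnj16 and Kcnj2, had 8 and 9 loops in diestrus and estrus. The middle group, around Sox9, had 18 loops in each library. The upper group, over Slc39a11 and up to Sstr2 and Sdk2, had 8 and 7. Outside the rule, 1 loop of 13520 kb in diestrus and 1 of 60870 kb in estrus passed over the whole window with both anchors elsewhere on chromosome 11.

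**Figure D2:**
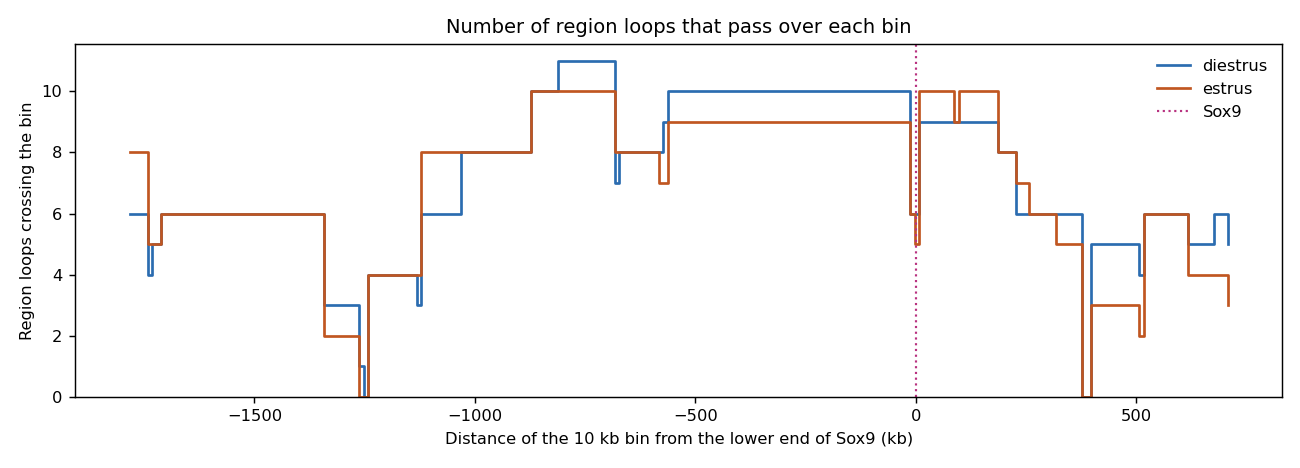
The number of loops of the window that pass over each 10 kb bin (y axis) is plotted against the bin's distance from the lower end of Sox9 in kb (x axis), with 1 line per library. Both lines drop to 0 at 111.53 Mb and at 113.16 to 113.17 Mb, the positions that bound the loops around Sox9.

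The widest loop around Sox9 was also the strongest of the window. It joined 111.53 Mb to 113.16 Mb over 1630 kb, with 233 contacts in diestrus (204 to 265, 95% Poisson interval) and 239 in estrus (210 to 271). Strength is the number of observed contacts divided by the number expected from the donut-shaped neighbourhood of the loop, and came to 15.8 (13.8 to 17.9) for the diestrus and 17.8 (15.6 to 20.2) for the estrus library. These intervals, here and below, are at 95%, cover counting error only and take the expected contacts as exact. Both libraries held this loop at the same bins, and the values overlap within their intervals. Among all loops of at least 1000 kb, its strength ranked 128th of 2190 in diestrus and 123rd of 2057 in estrus. The median strength of these long loops was 4.69 in diestrus and 4.94 in estrus. Among those with at least 100 contacts, the loop ranked 6th of 338 in diestrus and 8th of 311 in estrus. The limit of 100 contacts was not among the planned settings. The loop next in strength ran from 111.65 Mb to the same upper anchor over 1510 kb, with 105 contacts at a strength of 10.2 in diestrus and 97 at 11.02 in estrus.

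Sox9 sits inside this domain, nearer its upper end, and its contacts ran to both sides. Toward lower coordinates, the called loops reached into the wide desert as far as 111.53 Mb. By the rule that an end of the gene must lie in the anchor, Sox9 had 3 loops in diestrus and 6 in estrus. This count turns on the bin: in diestrus all 4 loops from the lower desert ended at the bin at 112.77 Mb, which stops 2209 bases short of the gene, while in estrus 1 of the 4 ended at the bin of Sox9 itself. When gene ends up to 5 kb outside an anchor were also counted, Sox9 had 7 and 9 loops, with 4 partners at lower coordinates in each library. Toward higher coordinates there were 3 in diestrus and 5 in estrus.

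The 4 partners of Sox9 or its adjacent bin in the lower desert were the same in both stages, to within 1 bin. The partner at 111.53 Mb had 152 contacts in diestrus (129 to 178) and 116 in estrus (95.9 to 139), at strengths of 7.04 and 6.84. The partner at 111.65 Mb had 87 contacts (69.7 to 107) and 75 (59.0 to 94.0), at strengths of 5.16 and 5.53. Both far partners were thus of like strength in the stages, although the estrus loop to 111.53 Mb had fewer contacts over a lower expectation. The partner at 111.90 Mb had 66 contacts (51.0 to 84.0) and 42 (30.3 to 56.8), at strengths of 5.36 and 4.17. The partner at 112.20 Mb in diestrus and 112.21 Mb in estrus had 95 contacts (76.9 to 116) and 89 (71.5 to 110), at strengths of 4.61 and 4.83. None of these 4 passed 1.5-fold in the centred ratio of strength, and 3 of the 4 anchors hold no annotated gene.

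The anchor at 111.65 Mb holds an end of Gm30219, a long non-coding RNA gene at 111637255 to 111659013. The ratio of strength for its loop to the bin beside Sox9, estrus over diestrus and centred on the median of all pairs in the genome, was 1.06 (0.768 to 1.46). This interval, which covers counting error only, includes 1.

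**Figure D3:**
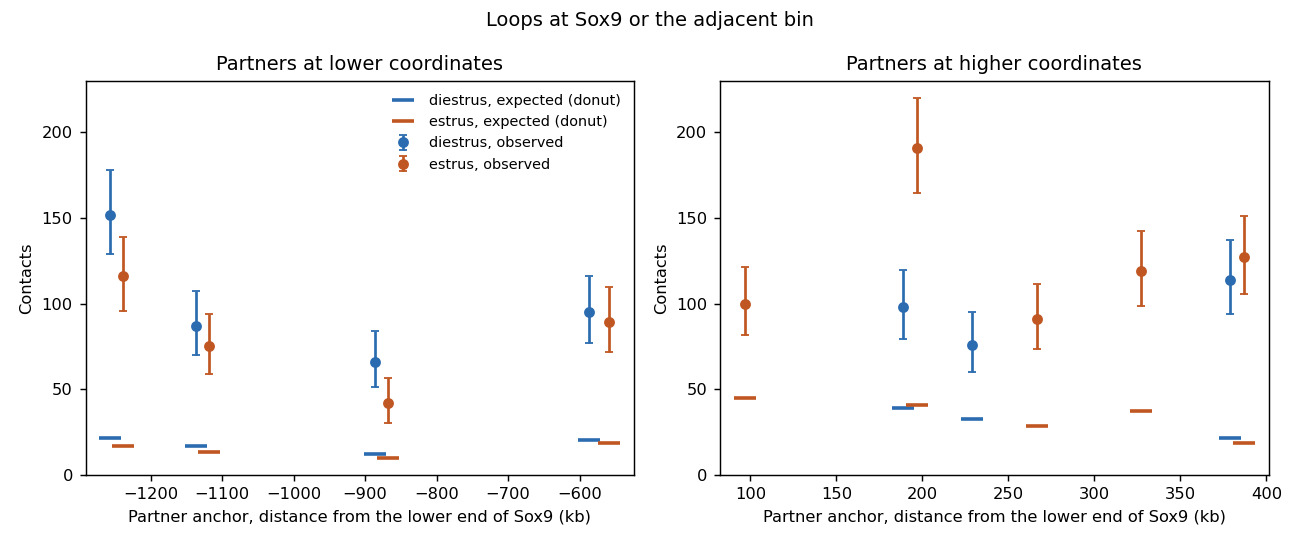
Observed contacts (points, with 95% Poisson intervals) and contacts expected from the donut (short bars) are shown for each loop at Sox9 or the adjacent bin, for partners at lower coordinates on the left and at higher coordinates on the right; the x axis is the distance of the partner from the lower end of Sox9 in kb. The 4 lower partners have both stages side by side, while on the other side the loop over 190 kb stands at 191 contacts in estrus and 98 in diestrus.

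Toward higher coordinates 1 loop of Sox9 had 1.95 times as many contacts in estrus. The loop from Sox9 to 112.97 Mb (112970001 to 112980000), over 190 kb, had 98 contacts in diestrus (79.6 to 119) and 191 in estrus (165 to 220), and the intervals do not overlap. Expected contacts were close, 39.1 and 40.9, and the strengths were 2.51 (2.04 to 3.06) and 4.67 (4.04 to 5.39). The centred ratio of strength was 1.84 (1.44 to 2.38), estrus over diestrus. It was the 74th largest among all 19399 pairs, and the 13th among the 16240 called at identical bins in both libraries. No annotated gene overlaps the anchor at 112.97 Mb.

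Sox9 was also joined to the upper end of the domain in both libraries, by the loop of 380 kb to 113.16 Mb. It had 114 contacts in diestrus (94.0 to 137) and 127 in estrus (106 to 151), at strengths of 5.25 and 6.88. The centred ratio of 1.30 (0.999 to 1.68) reached just below 1 at its lower bound. The anchor at 113.16 Mb lies inside the long non-coding RNA genes 2610035D17Rik and LOC115487747 and holds an end of neither.

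Between these anchors the called partners were not the same. In diestrus alone Sox9 was joined to 113.01 Mb over 230 kb, with 76 contacts (59.9 to 95.1) at a strength of 2.31. In estrus alone it was joined to 112.87 Mb over 90 kb with 100 contacts (81.4 to 122) at 2.24, to 113.04 Mb over 260 kb with 91 contacts (73.3 to 112) at 3.17, and to 113.10 Mb over 320 kb with 119 contacts (98.6 to 142) at 3.18. The anchor at 113.04 Mb holds the lower end of 2610035D17Rik, and that at 113.10 Mb lies within this gene. A further loop of estrus alone joined 112.87 Mb to 112.97 Mb, with 130 contacts (109 to 154) at 2.14. The diestrus loop to 113.01 Mb and the estrus loop to 113.04 Mb are 30 kb apart, and a wider tolerance of 20 kb between nearest edges takes them as the same loop. All these loops were weaker than the median loop of their list, and a loop that was not called can still have contacts, which the lists do not give.

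The local background of Sox9 was also uneven. For all 3 loops to higher coordinates in diestrus and all 5 in estrus, the expectation from the horizontal neighbourhood exceeded that from the vertical one, by little for the estrus loop of 380 kb, with 24.7 against 24.6. For the loops to lower coordinates this held for 1 of 4 in diestrus and 3 of 4 in estrus. On the higher side the excess was largest for the estrus loops to 113.10 Mb, with 65.7 against 33.3 expected contacts, and to 113.04 Mb, with 47.8 against 27.5. Over all loops, 49.8% in either list had the larger expectation in the horizontal neighbourhood. Measured against the largest of the 4 expectations in place of the donut, the log2 ratio of the 190 kb loop was 0.74 in place of 0.88.

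In each library 4 anchors of the lower desert were joined to Sox9 or its adjacent bin and also to the far end of the domain. These anchors were 111.53, 111.65 and 111.90 Mb, and the bins at 112.20 to 112.21 Mb. The loop to 113.16 Mb was the stronger of the pair for 3 of 4 anchors in diestrus and 4 of 4 in estrus. It was also the longer of each pair. Over all loops in diestrus, too, median strength was 3.13 under 800 kb and 4.48 at 800 kb or more. In estrus these medians were 3.26 and 4.77. In both libraries the loop to 113.16 Mb had more contacts of the pair from 111.53 and 111.65 Mb. It had fewer from 111.90 Mb and from 112.20 to 112.21 Mb. For 111.90 Mb the loop to 113.16 Mb had 45 contacts in diestrus and 34 in estrus, at strengths of 6.92 and 6.66. For 112.21 Mb it had 42 and 51 contacts, at 4.43 and 6.31, and 4.43 stands beside 4.61 for the diestrus loop to the bin beside Sox9. These loops share anchors and are not independent of each other.

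The anchors differed in how many loops they carried and to which side. Over both lists together most loops met at 113.16 Mb, with 6 in diestrus and 5 in estrus, all to lower coordinates; in estrus alone the bin of Sox9 had more, with 6. The adjacent bin at 113.17 Mb had 5 and 3 loops, all to higher coordinates. Sox9 and the bin before it repeat this split: the bin at 112.77 Mb had 4 and 3 loops, all to lower coordinates, and the bin of Sox9 had 3 and 5 to higher coordinates, with 0 and 1 to lower ones. The anchor at 111.53 Mb had 4 loops to higher coordinates in each library, and 1 and 0 to lower ones. Within the window, 6 of 22 anchors in diestrus and 6 of 22 in estrus had at least 4 loops, against 12.1% and 10.7% of all anchors of the lists. Of all 25 anchors in the window 7 hold the end of an annotated gene, and 19 were used in both libraries.

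**Figure D4:**
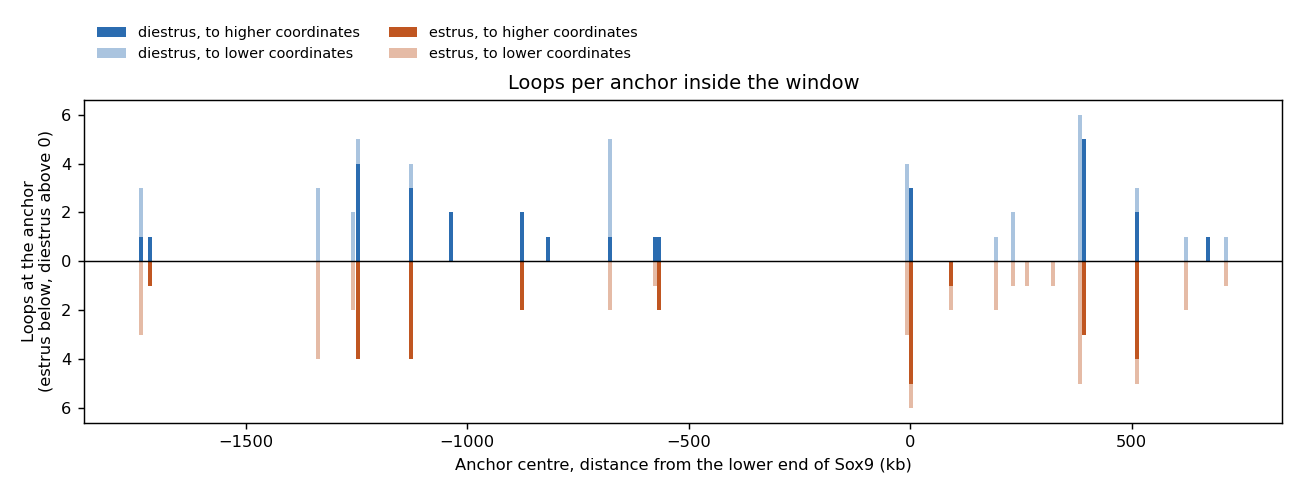
Bars give the number of loops at each anchor inside the window, with diestrus above and estrus below 0, dark for loops to higher and light for loops to lower coordinates; the x axis is the distance of the anchor from the lower end of Sox9 in kb. Neighbouring bins at Sox9 and at 113.16 and 113.17 Mb carry loops to opposite sides, and the anchor at 112.10 Mb has 5 loops in diestrus and 2 in estrus.

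One anchor of the lower desert that was not joined to Sox9 in either library carried more loops in diestrus. The anchor at 112.10 Mb (112100001 to 112110000), which overlaps no annotated gene, had 5 loops in diestrus against 2 in estrus. Loops from 111.53 Mb and 111.65 Mb were in both. The former had 62 and 61 contacts at strengths of 3.31 and 3.94, and the latter had 52 and 64 contacts at 2.80 and 4.04, a centred ratio of 1.43 (0.973 to 2.10). The 3 loops of diestrus alone came from 111.74 Mb with 60 contacts at 2.74, from 111.96 Mb with 101 contacts (82.3 to 123) at 2.66, and from 113.16 Mb with 36 contacts at 4.06. The 2 remaining loops of diestrus alone in the domain, apart from the Sox9 loop to 113.01 Mb, joined 111.53 to 111.65 Mb with 97 contacts at 2.33 and 111.74 to 113.01 Mb with 27 contacts at 3.05. In estrus alone there were loops from 111.53 to 113.01 Mb with 36 contacts at 3.50 and from 111.65 to 112.20 Mb with 39 contacts at 2.89.

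The group at lower coordinates ended against the Sox9 domain at 111.52 and 111.53 Mb. Near Map2k6, which encodes a kinase of the p38 pathway, 3 anchors in diestrus and 4 in estrus were joined to positions at 111.04 Mb, between Kcnj16 and Kcnj2, at 111.44 Mb, and at 111.52 and 111.53 Mb. The loop from 110.57 to 111.04 Mb had 303 contacts in diestrus and 296 in estrus, at strengths of 5.43 and 5.10. The loop from 110.53 to 111.44 Mb had 222 and 229 contacts, at 7.36 and 7.98, and that from 110.53 to 111.04 Mb had 198 and 223, at 3.85 and 4.31. The anchor at 111.06 Mb holds the promoter of Kcnj2, which encodes an inward rectifier channel, and its only loop ran over 380 kb to 111.44 Mb. This Kcnj2 loop had 135 contacts in diestrus and 139 in estrus, at 3.39 and 3.47. In this group 6 loops of each library, out of 8 and 9, were found in the other. The loop from 110.57 to 111.44 Mb had 190 contacts in diestrus and 154 in estrus, a centred ratio of 0.788 (0.633 to 0.980).

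The group at higher coordinates began at 113.17 Mb, 1 bin beyond the end of the Sox9 domain, and lay over Slc39a11. The loop with most contacts in the window, from 113.29 Mb inside Slc39a11 to 113.61 Mb, had 393 contacts in diestrus (355 to 434) and 340 in estrus (305 to 378), at strengths of 8.07 and 7.90. The anchor at 113.61 Mb holds the promoter of Sstr2, a somatostatin receptor gene, which had 4 loops in the diestrus and 3 in the estrus list. The loop from 113.17 to 113.29 Mb had 192 and 224 contacts, at 5.35 and 5.83, and the loop from 113.17 to 113.61 Mb had 115 and 112, at 5.92 and 6.54. The loop from 113.17 to 113.40 Mb had 43 and 38 contacts, a centred ratio of 0.899 (0.566 to 1.42). Of the loops called in diestrus alone, that from 113.45 to 113.61 Mb had most contacts, 138 (116 to 163) at 2.27, and in this group 5 loops of each library were found in the other.

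Over the whole window 23 of 34 loops of each library, 67.6% (49.5% to 82.6%, Clopper-Pearson), were found in the other, with both anchors within 10 kb. Over all loops 74.4% of the diestrus list and 80.8% of the estrus list were found, both inside this interval. In the window 20 loops were at identical bins. Loops not found in the other library had strengths of 2.27 to 4.68 (diestrus) and 2.14 to 4.02 (estrus). Their medians were 2.97 and 3.07, against 5.25 and 5.10 for those found. Over all loops, too, those not found were weaker, with medians of 2.56 and 2.57, against 3.68 and 3.74. The loops of the window were long: 13 of 34 in each library spanned at least 800 kb, or 38.2% (22.2% to 56.4%), against 12.3% of all loops in diestrus and 12.2% in estrus. Median strengths were 4.07 (3.31 to 5.35) for diestrus and 4.24 (3.50 to 5.53) for estrus, against 3.28 and 3.43 over all loops. Among loops of at least 800 kb the medians were 5.36 (3.89 to 7.36) and 5.53 (4.02 to 7.98), against 4.48 and 4.77 over all such loops, which lie inside the intervals.

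The strength of 23 pairs of loops was compared between the stages. The median centred log2 ratio, estrus over diestrus, was 0.10 (-0.05 to 0.16), with 16 pairs above 0 and 7 below. Only 1 pair, the 190 kb loop of Sox9, passed 1.5-fold in estrus, and 0 passed it in diestrus. Over all 19399 pairs of the genome 1.64% passed it in estrus and 1.56% in diestrus. The next largest ratios were 1.43 for the loop from 111.65 to 112.10 Mb and 1.41 (0.919 to 2.17) for that from 112.21 to 113.16 Mb, both with intervals that cover 1. The lowest was 0.769 (0.509 to 1.15), for the loop from 111.90 to 112.77 Mb beside Sox9.

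**Figure D5:**
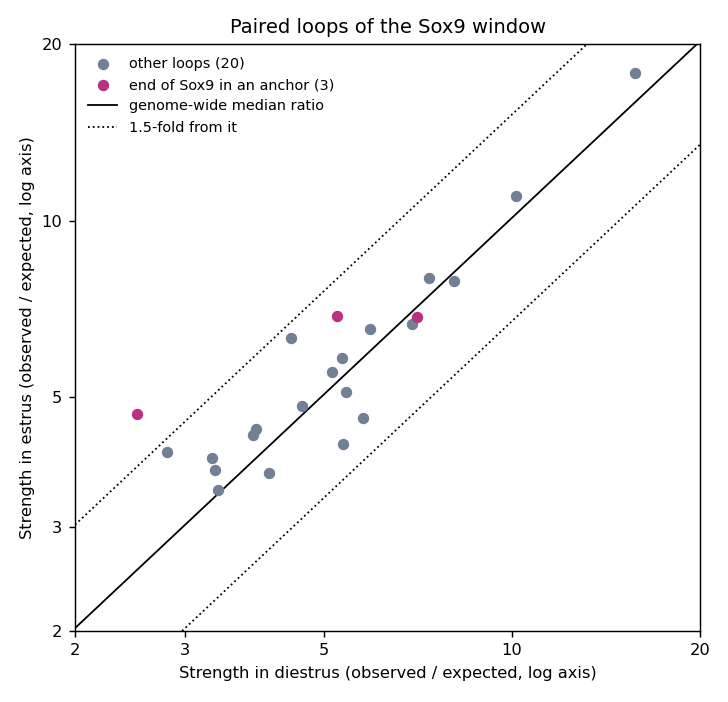
Each point is 1 of 23 paired loops, with strength (observed over expected contacts) in diestrus on the x axis and in estrus on the y axis, both on log axes; magenta points have an end of Sox9 in an anchor in at least 1 library. The solid line is the median ratio over all pairs of the genome and the dotted lines lie 1.5-fold from it, and only the 190 kb loop of Sox9 lies outside them.

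In the Sox9 domain the expected contacts were lower in estrus for 11 of 12 pairs, with a median log2 ratio of -0.23 (-0.31 to -0.16). Over all pairs of the genome this median was -0.08, and over those of at least 800 kb it was -0.11. The 12 pairs share anchors and are not independent of each other, which the interval does not allow for. The observed contacts of the 12 pairs summed to 1151 in diestrus and 1186 in estrus. This sum includes the 190 kb loop of Sox9, with 98 and 191 contacts. Without that loop the sum was lower in estrus than in diestrus. The centred log2 strength ratio of the 12 pairs had a median of 0.13 (-0.06 to 0.50), with 9 above 0 and 3 below. Strength divides by the expected contacts, and how far the lower expectation entered these ratios was not tested. At the 190 kb loop of Sox9, however, the expected contacts were slightly higher in estrus, and the raw contacts alone stood at a ratio of 1.95 (1.52 to 2.51).

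Promoter sequences are shown for some genes whose start lies in an anchor of the loops described above. The RefSeq promoters used here include none for Sox9, so its promoter was not searched for motifs. They come from RefSeq on GRCm38.p6, the assembly that mm10 names, and run from 250 bases before to 50 bases after the start, 5′ to 3′ in the direction of the gene. Of 7 promoters that the RefSeq table places in anchors of the window's loops, 4 are printed: those of the protein-coding genes Kcnj2 and Sstr2 in the neighbouring groups, of Gm30219 in the Sox9 partner at 111.65 Mb, and of LOC115487747 just beyond the domain's upper end. Gm30219 has a further listed start in the same anchor. Capitals mark matches to the SOX motif AACAAT on either strand.
Kcnj2, chr11:111065914-111066213, plus strand: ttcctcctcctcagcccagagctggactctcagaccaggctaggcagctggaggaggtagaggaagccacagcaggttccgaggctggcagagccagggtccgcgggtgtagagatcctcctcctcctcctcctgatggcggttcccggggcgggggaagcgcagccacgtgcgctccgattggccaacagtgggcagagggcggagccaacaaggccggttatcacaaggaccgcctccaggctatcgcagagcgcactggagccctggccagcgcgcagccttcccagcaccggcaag
Gm30219, chr11:111658606-111658905, minus strand: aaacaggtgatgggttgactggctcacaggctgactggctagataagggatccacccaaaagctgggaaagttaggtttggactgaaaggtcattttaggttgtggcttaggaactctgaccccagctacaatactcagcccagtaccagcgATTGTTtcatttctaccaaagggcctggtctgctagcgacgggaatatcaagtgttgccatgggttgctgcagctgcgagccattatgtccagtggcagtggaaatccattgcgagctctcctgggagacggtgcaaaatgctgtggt
LOC115487747, chr11:113173034-113173333, minus strand: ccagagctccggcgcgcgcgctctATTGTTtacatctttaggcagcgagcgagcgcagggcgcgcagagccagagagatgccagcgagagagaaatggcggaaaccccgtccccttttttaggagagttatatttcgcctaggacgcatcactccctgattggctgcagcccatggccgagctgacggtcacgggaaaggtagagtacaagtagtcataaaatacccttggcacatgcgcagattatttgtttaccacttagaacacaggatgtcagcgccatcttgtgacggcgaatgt
Sstr2, chr11:113619077-113619376, plus strand: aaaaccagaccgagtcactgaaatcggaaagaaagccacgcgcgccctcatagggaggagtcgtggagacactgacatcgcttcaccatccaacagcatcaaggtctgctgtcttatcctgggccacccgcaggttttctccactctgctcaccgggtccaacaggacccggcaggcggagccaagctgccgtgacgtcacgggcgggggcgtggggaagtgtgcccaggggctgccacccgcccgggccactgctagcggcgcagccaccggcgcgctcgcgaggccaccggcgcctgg

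The motif AACAAT, bound by SOX proteins, occurred once each in the printed Gm30219 and LOC115487747 promoters, on the reverse strand at bases 153 to 158 and 25 to 30. It occurred in neither of the other printed ones. Those of the 7 promoters not printed, among them that of the further Gm30219 start, held no match. Of all 32851 promoters of this length in the table, 10.7% hold this motif. The motif ACANNNTGT, half-sites bound by the progesterone receptor, occurred among the 7 promoters in LOC115487747 alone, at bases 266 to 274, apart from the SOX motif, and 6.85% of promoters hold it. A match describes these letters only. The Kcnj2 and Sstr2 promoters had G or C at 66.7% and 66.3% of bases, against 51.0% and 54.0% for the other printed ones and a median of 52.7% over all promoters.

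Genes of uterine gland development had fewer loops in estrus than in diestrus when summed. So did the whole lists, with 26240 loops in diestrus and 24131 in estrus. Over the 30 genes of this set the lists held 79 loops in diestrus and 67 in estrus with a gene end in an anchor. More loops were listed in estrus for 4 genes and in diestrus for 10, with 9 equal and 7 without a loop, and the median difference was 0. Among all 9049 protein-coding genes with a loop, the number was higher in estrus for 2267, higher in diestrus for 3027 and equal for 3755. The largest difference was at Bmp2, a signal of the decidual reaction, with 9 loops in diestrus and 5 in estrus. Equal differences followed at Fgf10, a stromal growth factor gene, with 3 and 1, at Klf5, an epithelial transcription factor gene, with 3 and 1, and at the Wnt ligand gene Wnt11, with 4 and 2.

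The 19 SOX family genes had 39 and 40 loops in all. The number was higher in estrus for 4 genes, higher in diestrus for 4, equal for 5, and 0 in both for 6. By the rule of a gene end in the anchor, Sox9 had the largest difference of the family. Sox4 had 12 loops in diestrus and 14 in estrus, Sox11 had 4 and 2, and Sox21 had 2 and 0. Sox8, the close relative of Sox9 in the SoxE group, had 1 loop in each library, and Sox10 had none in either. An excess of at least 3 loops in estrus, as at Sox9, was found at 49 of the 9049 genes, or 0.541%, and the Sox9 excess was 2 loops with gene ends within 5 kb.

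Outside the window, the genes most like Sox9 over the 2 libraries, in loops in diestrus, loops in estrus and diestrus loops found in estrus, were Tcf7l2, Inhbb and the predicted gene LOC115489044. Tcf7l2, which encodes a transcription factor of Wnt signalling, had 4 loops in diestrus and 6 in estrus. Inhbb, the gene of the inhibin beta B subunit, had 3 and 6, as did LOC115489044. Each differed from Sox9 by 1 in the sum of these 3 counts. A total of 11 genes were that close, and the 3 were taken by the median span of their loops, 265 kb, 270 kb and 240 kb against 260 kb for Sox9. This likeness rests on loops with an end of the gene in the anchor. With gene ends within 5 kb Sox9 had 7 loops in diestrus and 9 in estrus.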

How the data were processed

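The deposited loop lists, 1 per library, were made with Juicer on mm10, per the submitters' processing notes, with aligner, versions and calling thresholds not given in the sources used here. Per the file headers, the observed contacts and merged pixels are raw counts, the contacts expected from 4 neighbourhoods are a signal on the same scale, and the q-values are those of the authors' caller, at most 0.0955 in diestrus and 0.0991 in estrus. Anchor positions in the deposited files are of another kind (other: bases). Only called loops are listed.

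Called loops summed to 4533525 contacts in diestrus and 4153485 in estrus; full depth is not used here. Loops were matched with both anchors within 10 kb between nearest edges, mutually nearest loops were paired, and log2 strength ratios were centred on the median over all pairs. Medians have binomial order-statistic intervals and ratios of contacts exact conditional ones. No molecular identifiers are mentioned in the labels, so intervals of contacts cover counting error only. Genes came from RefSeq GRCm38.p6, and 30 of 30 and 19 of 19 list symbols matched. Python 3.11.15, pandas 2.3.3 and scipy 1.17.1 were used, and matching and pairing were tested on simulated data. The simulated library was drawn from the diestrus list with anchors shifted within the tolerance, so finding its loops again was built in. It does not test the matching of separately called lists.

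The members and lists were chosen with earlier results of these data known. Genes named were Sox9, protein-coding genes with an end in an anchor of the window's loops, list members and the 3 genes most like Sox9; other genes are named as landmarks. Loops named were all those at Sox9, the 5 with most contacts and the 5 strongest per library, the 3 largest of each library alone, and the 3 largest ratios in each direction. Further loops and anchors of the Sox9 domain were chosen after their values were seen. Promoters were matched by position within anchors.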

Additional observations from a re-analysis of the deposited data

How the results depend on the processing

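With 1 library per stage no library could be left out. No paired analysis was possible because each stage has a single library. Of 47 alternative settings, 41 left their value within its interval or within 1.5 times its count. Both numbers include the 6 settings of the 190 kb loop given below, which were chosen after the data were seen. With the window narrowed by 500 kb on each side, 21 loops in diestrus and 20 in estrus met the rule, as fewer anchors qualify. With the largest of the 4 expectations in place of the donut, the median strength was 2.95 in diestrus and 3.24 in estrus, lower by construction. With gene ends within 5 kb or 10 kb of an anchor Sox9 had 7 loops in diestrus, and 9 in estrus. With a largest q-value of 0.01 Sox9 had 2 loops in diestrus and 6 in estrus, without the diestrus loop to 113.01 Mb. The log2 ratio of the 190 kb loop ran from 0.74 to 0.90 over 6 settings chosen after the data were seen. Contacts of 26 to 393 per loop limit what single loops can show.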
